A study of Homo sapiens with 3 samples.

Results

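The small proline-rich protein (SPRR) genes were examined in xenograft tumors of triple-negative breast cancer (TNBC). The 8 genes examined were SPRR1A and SPRR1B of subfamily 1, SPRR2A, SPRR2D, SPRR2E, SPRR2F and SPRR2G of subfamily 2, and SPRR3 of subfamily 3. All 8 members were found by symbol among the 29689 genes of the expression table, which listed 11 SPRR symbols in all. The other 3, SPRR2B, SPRR2C and SPRR4, are not members. SUM-149, a human TNBC cell line, was mixed with Matrigel and grown in the mammary fat pads of female Nu/Nu mice, which lack mature T cells. One group received vehicle, one the CDK2 inhibitor dinaciclib (CDK2i) and one an EZH2 inhibitor (EZH2i). The labels give 10 days of treatment for both inhibitors and no time for vehicle. Besides CDK2, dinaciclib also inhibits CDK1, CDK5 and CDK9, as the study states. The sample labels name the EZH2 inhibitor as EPZ6438, whereas a figure legend of the study names GSK343 for SUM-149 xenografts, so the compound in this tumor is uncertain. Each condition had 1 RNAseq library, so the values carry no replicate error and no test between conditions was made.

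SPRR proteins are small precursors of the cornified envelope, the insoluble protein shell that forms beneath the plasma membrane of squamous epithelial cells in their last stage of differentiation. Transglutaminases cross-link them through glutamine and lysine residues at both ends, while the central proline-rich repeats act as a flexible bridge to loricrin, involucrin and other envelope proteins. The genes lie side by side in the epidermal differentiation complex and are known targets of AP-1, the dimer of FOS and JUN family proteins, in keratinocytes. Basal-like breast cancer cells share keratins with the basal layer of stratified epithelia.

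On GRCh37 the members are in one stretch of chromosome 1. SPRR1A (chr1:152956557-152958290), SPRR3 (chr1:152974223-152976332) and SPRR1B (chr1:153003679-153005376) are on the plus strand. SPRR2D (chr1:153012208-153014407), SPRR2A (chr1:153028596-153029988), SPRR2E (chr1:153065611-153078660), SPRR2F (chr1:153084597-153085992) and SPRR2G (chr1:153122058-153123366) are on the minus strand. In all 8 genes the annotated coding sequence lies in 1 exon. It has 267 bases in each SPRR1 gene, 216 in SPRR2A, SPRR2D, SPRR2E and SPRR2F, 219 in SPRR2G and 507 in SPRR3, without the stop codon. Codons for proline (CCN) make up 30.3% of the codons of SPRR1A, 37.5% of SPRR2A and 22.5% of SPRR3.

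The coding sequences of closely related members are printed because their likeness bears on how reads can be assigned. They are taken from GRCh37 with GENCODE 44 positions and read 5′ to 3′ on the coding strand. Capitals mark bases that differ from SPRR1A in SPRR1B (10 of 267) and from SPRR2A in SPRR2D (4 of 216) and SPRR2E (5 of 216).
SPRR1A: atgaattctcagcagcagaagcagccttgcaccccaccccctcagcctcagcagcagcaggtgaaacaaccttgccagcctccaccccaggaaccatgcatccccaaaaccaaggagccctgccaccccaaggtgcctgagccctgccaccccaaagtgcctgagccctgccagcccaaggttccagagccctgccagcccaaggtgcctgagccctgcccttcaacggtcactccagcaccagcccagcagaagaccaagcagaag
SPRR1B: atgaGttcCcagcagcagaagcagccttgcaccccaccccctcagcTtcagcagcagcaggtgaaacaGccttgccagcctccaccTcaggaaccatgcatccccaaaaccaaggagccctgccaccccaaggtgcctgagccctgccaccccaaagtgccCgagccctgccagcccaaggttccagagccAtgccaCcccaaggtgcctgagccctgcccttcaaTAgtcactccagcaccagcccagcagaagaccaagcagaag
SPRR2A: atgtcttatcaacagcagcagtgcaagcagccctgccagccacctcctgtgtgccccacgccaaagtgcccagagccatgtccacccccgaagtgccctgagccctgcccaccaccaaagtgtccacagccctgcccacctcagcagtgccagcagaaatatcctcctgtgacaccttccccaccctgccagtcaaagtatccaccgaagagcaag
SPRR2D: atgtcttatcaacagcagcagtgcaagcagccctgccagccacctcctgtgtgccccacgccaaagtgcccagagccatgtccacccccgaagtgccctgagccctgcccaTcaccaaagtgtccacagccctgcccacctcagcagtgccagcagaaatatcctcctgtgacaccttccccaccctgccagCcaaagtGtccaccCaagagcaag
SPRR2E: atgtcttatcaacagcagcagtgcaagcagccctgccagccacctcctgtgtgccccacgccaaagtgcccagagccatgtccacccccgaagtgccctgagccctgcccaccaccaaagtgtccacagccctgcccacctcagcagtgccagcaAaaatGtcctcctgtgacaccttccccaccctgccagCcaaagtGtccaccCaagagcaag

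The coding sequence of SPRR2A had 96.8% identity with that of SPRR2F and 86.4% with that of SPRR2G in a global alignment, and 57.6% with that of SPRR1A. Over whole transcripts, 21.5% of the 100-base windows of SPRR2A also occurred in another SPRR transcript, as did 12.1% of those of SPRR2E and 4.56% of those of SPRR2D. No 100-base window of SPRR1A, SPRR1B, SPRR2F, SPRR2G or SPRR3 did. With 50-base windows the shares were 34.4% for SPRR2A, 26.8% for SPRR2D, 23% for SPRR2E, 18.4% for SPRR2F, 7.96% for SPRR2G, 7.85% for SPRR1A, 8.25% for SPRR1B and 0% for SPRR3. The split of fragments among the SPRR2 genes is therefore less certain than the SPRR2 sum, and how the counting treated such fragments is not given in the sources used here.

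The sequences just before the transcription start are printed for 5 members because they carry motifs in common. Each is the last 200 bases before the start, from RefSeq on GRCh38.p14, read 5′ to 3′ on the gene's strand. Capitals mark the AP-1 letters TGANTCA, the TATA box letters TATAAA and the octamer letters ATTTGCAT, searched on both strands. The windows are SPRR1A at chr1:152983881-152984080, plus strand, SPRR1B at chr1:153031003-153031202, plus strand, SPRR3 at chr1:153001549-153001748, plus strand, SPRR2A at chr1:153057513-153057712, minus strand, and SPRR2G at chr1:153150891-153151090, minus strand.
SPRR1A: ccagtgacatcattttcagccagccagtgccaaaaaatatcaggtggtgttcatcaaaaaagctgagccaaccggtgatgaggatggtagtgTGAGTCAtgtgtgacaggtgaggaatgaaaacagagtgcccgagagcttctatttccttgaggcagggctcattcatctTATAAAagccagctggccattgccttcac
SPRR1B: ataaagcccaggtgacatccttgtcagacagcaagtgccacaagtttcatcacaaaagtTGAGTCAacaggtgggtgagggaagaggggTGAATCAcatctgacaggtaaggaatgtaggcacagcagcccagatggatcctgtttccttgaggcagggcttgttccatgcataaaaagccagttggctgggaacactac
SPRR3: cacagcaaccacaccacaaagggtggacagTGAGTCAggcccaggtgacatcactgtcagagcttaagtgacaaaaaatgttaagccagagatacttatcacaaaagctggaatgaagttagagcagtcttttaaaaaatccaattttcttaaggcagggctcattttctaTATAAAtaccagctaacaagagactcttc
SPRR2A: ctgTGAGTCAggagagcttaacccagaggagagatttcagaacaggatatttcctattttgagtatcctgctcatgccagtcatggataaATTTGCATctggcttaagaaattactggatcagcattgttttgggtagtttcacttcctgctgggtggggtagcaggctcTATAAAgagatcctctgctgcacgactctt
SPRR2G: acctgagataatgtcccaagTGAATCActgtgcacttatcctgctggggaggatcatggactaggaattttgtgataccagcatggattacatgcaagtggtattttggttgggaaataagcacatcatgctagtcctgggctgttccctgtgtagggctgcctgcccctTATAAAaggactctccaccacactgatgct

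Promoter sequences of 6 of the 8 members were read from the table used here, which did not include SPRR2D and SPRR2E. In the 250 bases before the start, all 6 held the AP-1 letters TGANTCA, which 6.6% of 27305 promoters of that length held. The match began 108 bases before the start in SPRR1A, 141 and 111 in SPRR1B, 170 in SPRR3, 197 in SPRR2A, 196 in SPRR2F and 180 in SPRR2G. Sequences of the non-members SPRR2B and SPRR4 were also read, and neither held the AP-1 letters. TATAAA was in 5 of the 6 members, all but SPRR1B, and in 11.1% of all promoters. The octamer ATTTGCAT was in SPRR2A and SPRR2F, against 1.66% of all promoters. AGGAAG, the core of many ETS factor sites, was in SPRR1B, SPRR2A and SPRR3, against 28.7% of all promoters. The cyclic AMP response element TGACGTCA and the STAT letters TTCNNNGAA were in none of the 6, against 1.77% and 6.78% of all promoters. No matches overlapped, the SPRR2 promoters share sequence, and 6 of 8 genes are too few for a check over the whole family. A match is a description of the letters and not evidence of a bound factor.

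Levels are given as FPKM, fragments per kilobase of gene per 1000000 fragments, and differences as log2 FPKM. The step between low values gave a depth, in units of 1000000 fragments, of 19.1 in the CDK2i library, 17.5 in the EZH2i library and 16.8 in the vehicle library. From these depths each FPKM was turned back into a number of fragments, which was whole for 5 members and is approximate for SPRR1B, SPRR2D and SPRR2E. Intervals of a ratio are exact 95% binomial intervals on these fragments, cover counting error only and leave out the variation between animals. Tumor lysates mix cells, so more SPRR-expressing cells and more SPRR RNA per cell cannot be told apart.

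The 8 members together reached 78.3 FPKM in the vehicle tumor, 349 FPKM in the CDK2i tumor and 105 FPKM in the EZH2i tumor. The sum was 4.45-fold higher in CDK2i than in vehicle and 1.34-fold higher in EZH2i. Without SPRR1B, the most abundant member, the corresponding values were 37.4, 158 and 70.2 FPKM. Both comparisons use the same vehicle library, so an unusual value in it would move both.

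**Figure D1:**
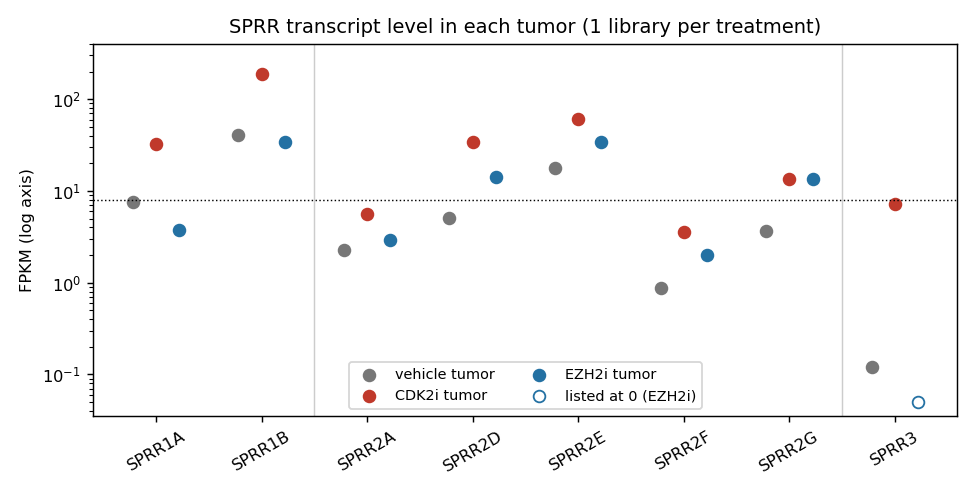
FPKM of each SPRR gene (log axis) in the vehicle, CDK2i and EZH2i tumors, 1 library each; the dotted line is 8 FPKM (log2 FPKM 3), grey lines part the subfamilies, and the open circle marks a value listed at 0. CDK2i is the highest of the 3 tumors for all 8 genes, by a margin within counting error for SPRR2G over EZH2i.

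A gene counted as past the thresholds when it differed more than 2-fold and either tumor of the pair exceeded log2 FPKM 3 (8 FPKM), the fold and expression limits used in the study. The study also set a p-value limit, which was not used here. In CDK2i, 5 of the 8 members passed as higher than vehicle (SPRR1A, SPRR1B, SPRR2D, SPRR2E and SPRR2G), as did 3.27% of the 6632 genes that could pass. No other member reached the expression minimum in that pair, and SPRR1A, SPRR2D and SPRR2G reached it only in CDK2i. With the minimum lowered to log2 FPKM 1, all 8 members were more than 2-fold higher, against 4.15% of 11718 genes. SPRR2F and SPRR3 reached the lowered minimum in CDK2i but not in vehicle. The members' median difference was 2.05, against −0.11 over the 11109 genes that averaged above log2 FPKM 1 and were not listed at 0 in any tumor, whose differences had a 95th percentile of 0.80. That set leaves out SPRR2F and SPRR3, and the 6 members within it had a median of 1.98.

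In EZH2i, 2 of the 8 members passed as higher than vehicle (SPRR2D and SPRR2G), 4 could have passed, and 8.93% of 7414 genes passed. SPRR2D and SPRR2G reached the minimum in EZH2i but not in vehicle. With the lower minimum SPRR2F was added, giving 3 of the 7 members that could pass, against 12.7% of 12392 genes. SPRR2F reached the lower minimum in EZH2i but not in vehicle. With that minimum SPRR1A was the only member to pass as lower, against 5.29% of genes. The 7 members with a value above 0 in both tumors had a median difference of 0.93, beside 0.19 over the same 11109 genes. The 6 members within that set, without SPRR2F and SPRR3, had a median of 0.64. Of the 7 members, 5 had a higher value than in vehicle, SPRR2A within counting error, and the 2 SPRR1 genes had a lower one.

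SPRR1A measured 7.64 FPKM in vehicle, 32.3 FPKM in CDK2i and 3.79 FPKM in EZH2i, from 83, 400 and 43 fragments. SPRR1A and SPRR1B encode the envelope bridges that are induced in injured and inflamed squamous epithelia. The SPRR1A level was 4.23-fold that of vehicle in CDK2i (interval 3.33 to 5.42), and 0.496-fold in EZH2i (interval 0.335 to 0.726). It was thus high in one treated tumor and low in the other, with vehicle between them.

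SPRR1B measured 40.9 FPKM in vehicle, 190 FPKM in CDK2i and 34.3 FPKM in EZH2i, and in CDK2i it was above 99% of all genes in the table. It was 4.65-fold that of vehicle in CDK2i, with an interval of 4.19 to 5.17. In EZH2i the log2 difference was −0.25 (interval −0.45 to −0.05). A trend of the differences with GC content and transcript length was fitted over 9507 expressed genes, without ribosomal protein genes. Once this trend was removed, the difference became 0.37. The direction of SPRR1B in EZH2i was therefore not settled. Under the same setting the log2 difference of SPRR1A in EZH2i was −0.35 in place of −1.01, less than 2-fold and outside its counting interval.

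The summed level of the 5 SPRR2 members was higher than vehicle in both treated tumors, with 29.6 FPKM in vehicle, 119 FPKM in CDK2i and 66.4 FPKM in EZH2i. SPRR2 genes encode the shortest envelope bridges and form the largest subfamily. The sum was 4.02-fold higher in CDK2i and 2.24-fold higher in EZH2i. With the non-members SPRR2B and SPRR2C added, these folds were 4.01 and 2.25.

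SPRR2E, the most abundant of them, measured 17.7 FPKM in vehicle, 61.6 FPKM in CDK2i and 33.8 FPKM in EZH2i. It was 3.47-fold that of vehicle in CDK2i (interval 2.98 to 4.07) and 1.91-fold in EZH2i (interval 1.61 to 2.27), the latter short of the 2-fold limit as reported and past it with GC and length trends removed (log2 difference 1.42). SPRR2D measured 5.06 FPKM in vehicle, 34.5 FPKM in CDK2i and 14.3 FPKM in EZH2i. Its ratios to vehicle were 6.82 in CDK2i (interval 5.29 to 8.92) and 2.82 in EZH2i (interval 2.13 to 3.77). The intervals of SPRR2D and SPRR2E were apart in CDK2i and overlapped in EZH2i.

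SPRR2G, the most divergent SPRR2 member in sequence, measured 3.67 FPKM in vehicle, 13.6 FPKM in CDK2i and 13.5 FPKM in EZH2i. The 148 fragments in CDK2i and 134 in EZH2i gave an EZH2i to CDK2i ratio of 0.989 (interval 0.777 to 1.26). The log2 difference between both treated tumors was −0.02, and ran from −0.40 with the libraries centred on their median genes to 0.44 with GC and length trends removed.

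SPRR2A measured 2.27 FPKM in vehicle, 5.6 FPKM in CDK2i and 2.9 FPKM in EZH2i, from 27, 76 and 36 fragments. The ratio to vehicle was 2.47 in CDK2i (interval 1.57 to 3.98) and 1.28 in EZH2i (interval 0.754 to 2.19), so no difference was detectable in EZH2i at this depth. SPRR2F measured 0.875 FPKM in vehicle, 3.53 FPKM in CDK2i and 2.01 FPKM in EZH2i, from 10, 46 and 24 fragments. Its intervals were wide, 2.01 to 8.96 for the ratio in CDK2i and 1.06 to 5.39 in EZH2i, and both lay above 1.

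SPRR3, known as an abundant envelope precursor of the esophagus and oral mucosa, measured 0.121 FPKM in vehicle and 7.22 FPKM in CDK2i and was listed at 0 in EZH2i. These values stand for 2, 136 and 0 fragments. The CDK2i to vehicle ratio was 59.6 with a counting interval of 16.2 to 497, and the log2 difference of 5.90 was the largest of the 8. It rests on 2 vehicle fragments and was 2.87 with 1 added to each FPKM. By the exact interval SPRR3 was at least 33.3-fold lower in EZH2i than in CDK2i, and a limit of 3 fragments for the count of 0 gave 41.5-fold. Between EZH2i and vehicle no fold is given, since both numbers are at or under that limit.

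**Figure D2:**
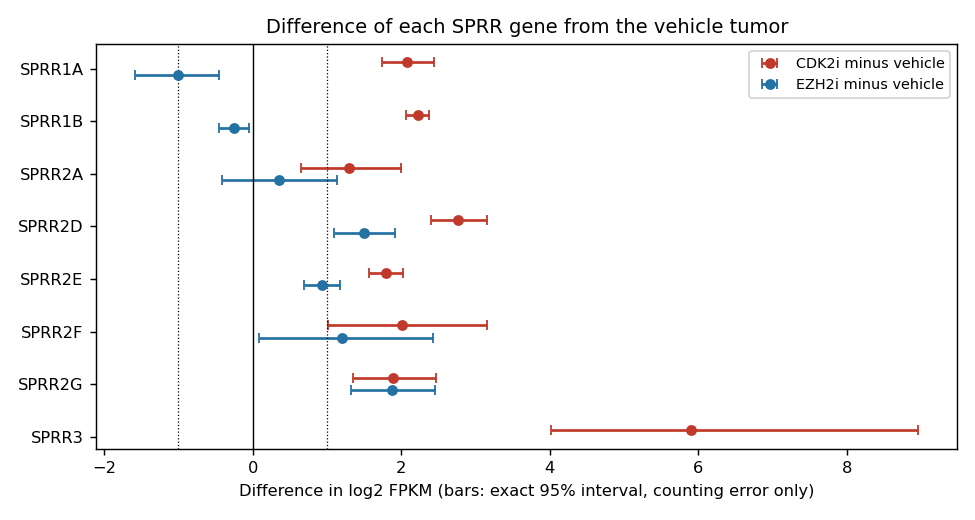
Difference in log2 FPKM of each SPRR gene from the vehicle tumor (x axis) for CDK2i and EZH2i, with exact 95% intervals for counting error only; dotted lines mark 2-fold. All 8 CDK2i values lie between 1.30 and 5.90, while EZH2i values run from −1.01 for SPRR1A to 1.88 for SPRR2G; SPRR3 has no EZH2i point because it was listed at 0.

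Set against each other, the treated tumors differed most in subfamilies 1 and 3. Of the 5 members that could pass, SPRR1A, SPRR1B and SPRR2D were past the thresholds as lower in EZH2i than in CDK2i, as were 6.53% of 7394 genes. SPRR1A was 8.51-fold lower (interval 6.21 to 12) and SPRR1B 5.54-fold lower (interval 4.95 to 6.19). With GC and length trends removed, the log2 difference of SPRR1A went from −3.09 to −2.51 and that of SPRR1B from −2.47 to −1.94. Both were then smaller than their counting intervals allow and still past the 2-fold limit. SPRR2D was 2.42-fold lower, and its log2 difference of −1.28 became −0.83, short of the limit, with GC and length trends removed. The other SPRR2 folds were smaller, with SPRR2E 1.82-fold lower, SPRR2A 1.93-fold and SPRR2F 1.75-fold. The SPRR1 sum was 5.83-fold and the SPRR2 sum 1.79-fold lower in EZH2i than in CDK2i.

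The make-up of the summed level followed from these differences. SPRR1 genes held 62% of the summed SPRR FPKM in vehicle and 63.8% in CDK2i, but 36.5% in EZH2i. SPRR2 genes held 37.8%, 34.1% and 63.5%. SPRR3 held 0.155% in vehicle and 2.07% in CDK2i. The CDK2i tumor thus had more of a similar mixture, and the EZH2i tumor had a mixture in which SPRR2 was the larger part.

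**Figure D3:**
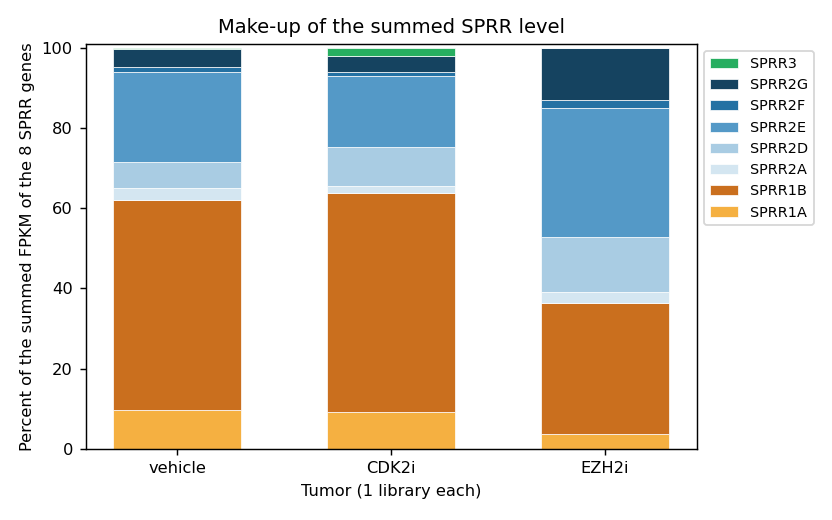
Percent of the summed FPKM of the 8 SPRR genes held by each gene in the vehicle, CDK2i and EZH2i tumors, 1 library each. The 2 SPRR1 genes (orange) hold 62% in vehicle, 63.8% in CDK2i and 36.5% in EZH2i, and the SPRR2 genes (blue) hold 63.5% in EZH2i.

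By level per length, SPRR1B was first and SPRR2E second in each tumor. In EZH2i the SPRR1B to SPRR2E ratio of 1.02 (interval 0.882 to 1.17) did not separate them, whereas it was 2.31 in vehicle and 3.09 in CDK2i. SPRR1A took place 3 in vehicle, place 4 in CDK2i and place 5 in EZH2i. In CDK2i, SPRR2D and SPRR1A were not separated (ratio 1.07, interval 0.938 to 1.22), nor were SPRR3 and SPRR2A. In vehicle, SPRR2G was not separated from SPRR2D above it or from SPRR2A below it, and in EZH2i the pairs SPRR2D and SPRR2G, SPRR1A and SPRR2A, and SPRR2A and SPRR2F were not separated.

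The transcription factor genes of AP-1 moved unequally between the tumors. In CDK2i, 6 of the 7 AP-1 subunit genes were past the thresholds as higher than vehicle and none as lower, against 3.27% and 8.07% of all genes. The exception, FOSL2, measured 17.6 FPKM in vehicle and 18.7 FPKM in CDK2i. FOS went from 20.5 FPKM in vehicle to 511 FPKM in CDK2i and 37.3 FPKM in EZH2i. JUNB measured 125, 1461 and 89.8 FPKM in the same order, and JUN 35.4, 254 and 33.5 FPKM. FOSB measured 1.96, 19.5 and 1.48 FPKM, and JUND 66.8, 144 and 45.3 FPKM. FOSB reached the expression minimum only in CDK2i, so it could only pass as higher there. FOSL1, a subunit of AP-1 in proliferating and migrating epithelial cells, was higher in both treated tumors, with 31.2 FPKM in vehicle, 75.2 FPKM in CDK2i and 84.4 FPKM in EZH2i. In EZH2i, FOSL1 was the only AP-1 gene past the thresholds, where 8.93% of all genes passed as higher. The median difference of the 7 genes was 2.84 in CDK2i and −0.40 in EZH2i, beside −0.11 and 0.19 over the 11109 genes described above. FOS, FOSB and JUNB are immediate early genes that also respond within minutes to handling of tissue, and their part in the SPRR levels was not tested.

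Of 16 other transcription factor genes of keratinocyte differentiation, 15 had a mean log2 FPKM above 1. In CDK2i 12 could pass, and 3 were past the thresholds as higher and 1 as lower, against 3.27% and 8.07% of all genes. ELF3, an ETS factor of epithelial differentiation, measured 13 FPKM in vehicle, 43 FPKM in CDK2i and 3.6 FPKM in EZH2i. This order was also seen for SPRR1A and, among others, JUN, JUNB and JUND. OVOL1 measured 2.81, 8.06 and 3.27 FPKM, and reached the expression minimum only in CDK2i. NFE2L2, the oxidative stress regulator NRF2, was the lower one in CDK2i, with 18.5 FPKM in vehicle, 9.21 FPKM in CDK2i and 24.3 FPKM in EZH2i. In EZH2i, GRHL3 (3.32 FPKM in vehicle and 10.4 FPKM in EZH2i) and TP63 (17.8 and 39 FPKM) passed as higher, and ELF3 and MAF (10.2 and 5 FPKM) as lower. Within this pair GRHL3 reached the expression minimum only in EZH2i, and ELF3 and MAF only in vehicle. Of all genes, 8.93% passed as higher and 4.42% as lower in EZH2i. PRDM1 measured 1.26 FPKM in vehicle, 3.32 FPKM in CDK2i and 7.04 FPKM in EZH2i and stayed under the expression minimum. KLF4, EHF, GRHL1, ZNF750, CEBPB, STAT3 and IRF1 did not pass in either comparison with vehicle, and their log2 differences ran from −0.98 for ZNF750 in EZH2i to 0.78 for EHF in EZH2i. The median of the list was 0.47 in CDK2i and 0.39 in EZH2i.

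Of the 6 genes of transglutaminases, which cross-link SPRR proteins, only TGM1 could pass, and it did not pass in either comparison with vehicle. Of all genes, 3.27% passed as higher and 8.07% as lower in CDK2i, and 8.93% and 4.42% in EZH2i. TGM1, the main membrane-bound form in keratinocytes and the only one with a mean log2 FPKM above 1, measured 10.5 FPKM in vehicle, 20.9 FPKM in CDK2i and 14.3 FPKM in EZH2i. Its log2 difference of 0.99 in CDK2i was just short of the limit.

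Other cornified envelope precursors were represented by 33 genes of the table, 12 of them with a mean log2 FPKM above 1. In CDK2i all 12 could pass, and 5 passed as higher and none as lower, against 3.27% and 8.07% of all genes. The median difference of the 12 was 0.67. In EZH2i 10 could pass, and 2 passed as higher and 1 as lower, against 8.93% and 4.42% of all genes. The median of the 12 in EZH2i was −0.04. CRCT1 measured 1.53 FPKM in vehicle, 19.7 FPKM in CDK2i and 12.4 FPKM in EZH2i, and LCE3D 1.46, 14.6 and 9.77 FPKM. These 2 genes were high in both treated tumors and reached the expression minimum only there, so they could only pass as higher than vehicle. SBSN, which encodes suprabasin, measured 83.6, 313 and 162 FPKM, and involucrin (IVL) 3.96, 13.7 and 5.36 FPKM. IVL reached the expression minimum only in CDK2i. Loricrin (LOR), the major partner of SPRR proteins in the epidermis, measured 0.726 FPKM in vehicle, 0.212 FPKM in CDK2i and 0.0464 FPKM in EZH2i, and filaggrin (FLG) between 0.107 and 0.154 FPKM. Other precursors of the list were abundant, with PI3 (elafin) at 2630, 3753 and 1747 FPKM, KRTDAP at 281, 373 and 88.5 FPKM and CSTA at 270, 232 and 140 FPKM. KRTDAP was the 1 gene that passed as lower in EZH2i.

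In the epidermal differentiation complex, taken from S100A10 to S100A1, the table held 44 genes beside the SPRR symbols, 21 of them with a mean log2 FPKM above 1. Of the 18 that could pass in CDK2i, 4 passed as higher than vehicle (CRCT1, LCE3D, IVL and PGLYRP3) and none as lower, against 3.27% and 8.07% of all genes. CRCT1, LCE3D and IVL reached the expression minimum in CDK2i but not in vehicle. Of the 17 that could pass in EZH2i, 2 passed as higher (CRCT1 and LCE3D) and 6 as lower, against 8.93% and 4.42% of all genes. CRCT1 and LCE3D reached the minimum in EZH2i but not in vehicle. Among the lower genes, PGLYRP3 and PGLYRP4 reached it in vehicle but not in EZH2i. The 15 S100A genes with a mean above log2 FPKM 1 had a median difference of 0.13 in CDK2i and −0.65 in EZH2i, and 4 S100A genes passed as lower in EZH2i. The median over the 21 genes was 0.42 in CDK2i and −0.64 in EZH2i.

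**Figure D4:**
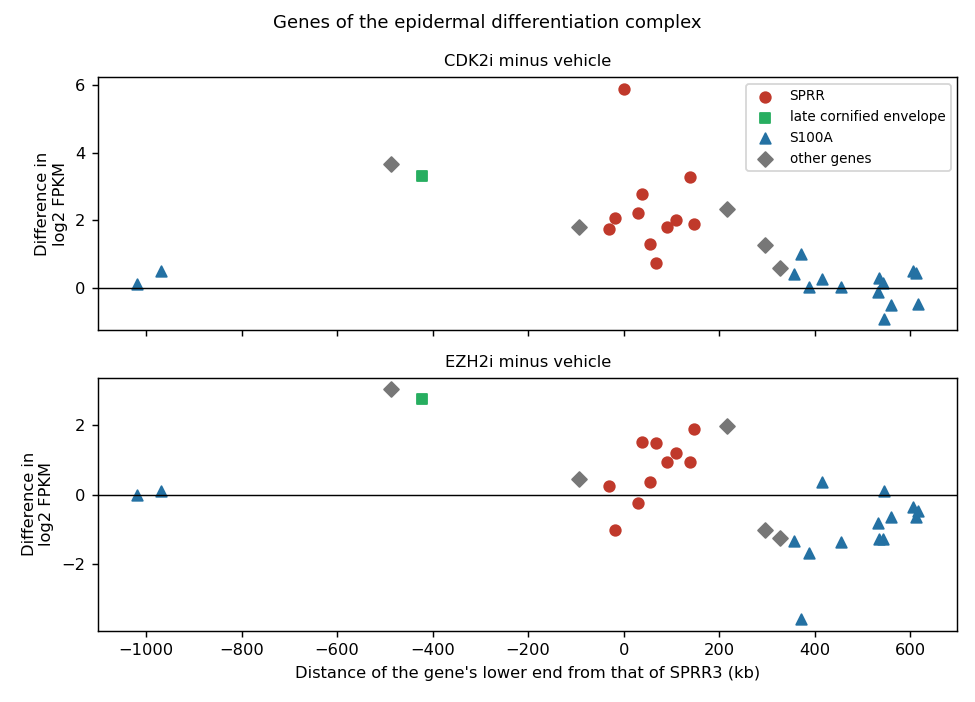
Difference in log2 FPKM from the vehicle tumor for CDK2i (top) and EZH2i (bottom) of genes of the epidermal differentiation complex whose highest value was above log2 FPKM 1 and that were not listed at 0 in either tumor, against distance from SPRR3 in kb. In CDK2i the 11 SPRR symbols lie between 0.73 (SPRR2B) and 5.90 (SPRR3) and the S100A genes between −0.91 (S100A3) and 1.01 (S100A12), while in EZH2i most S100A genes lie below 0 and SPRR3 has no point.

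The 4 genes outside the family with differences nearest to those of the summed SPRR level, by Euclidean distance over both comparisons among 7567 genes, were KRT6C, EGR2, CASP14 and IVL. KRT6C, a keratin of activated and hyperproliferative epidermis, measured 61.1 FPKM in vehicle, 231 FPKM in CDK2i and 90.1 FPKM in EZH2i. CASP14, the caspase of cornifying keratinocytes, measured 14.8, 53 and 21.8 FPKM. EGR2, an immediate early zinc finger factor, measured 5.06, 19.8 and 5.58 FPKM. The likeness rests on 3 libraries and the distances were 0.277 to 0.367 log2 units.

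Markers of the tumor and of other cells were read beside these values. Breast carcinoma epithelial markers were present, with EPCAM at 66.3 FPKM in vehicle, 74 FPKM in CDK2i and 81 FPKM in EZH2i. All 8 of these epithelial markers could pass in both comparisons with vehicle. KRT5, KRT14 and KRT17 passed as higher in CDK2i, against 3.27% of all genes, and KRT19 as lower in EZH2i, against 4.42%. KRT14 went from 2458 FPKM in vehicle to 6269 FPKM in CDK2i and 2541 FPKM in EZH2i. PGR was at or near 0, ESR1 between 0.792 and 1.1 FPKM and ERBB2 between 21.9 and 30.4 FPKM. Of the 6 epidermal markers, 3 could pass in each comparison with vehicle, and none passed in CDK2i. KRT1 (452, 842 and 131 FPKM), KRT10 (507, 510 and 42.5 FPKM) and KRT77 (29.6, 40.3 and 2.59 FPKM) were all lower in EZH2i, past the thresholds. Of all genes, 4.42% passed as lower in EZH2i. Within that pair KRT77 reached the expression minimum only in vehicle. The summed level of the 6 epidermal markers was 990 FPKM in vehicle, 1394 FPKM in CDK2i and 177 FPKM in EZH2i, nearly all from KRT1 and KRT10. This was the order also seen for SPRR1A and, among others, JUN, JUNB, PI3 and KRTDAP. The part of the epidermal markers in the SPRR1 values was not tested. KRT2 measured 0.768, 1.85 and 0.689 FPKM, while LOR (0.726, 0.212 and 0.0464 FPKM) and FLG (0.154, 0.107 and 0.107 FPKM) were highest in vehicle. The 7 fibroblast markers summed to 24.5, 38.4 and 28.9 FPKM, the 6 macrophage markers to 8.52, 8.35 and 3.75 FPKM, nearly all from CD14, and the 3 endothelial markers to under 1 FPKM in each tumor. The leukocyte marker PTPRC was at 0.0224 FPKM or less. The human reference was used in the study, so RNA of the mouse host is counted only where it matches human sequence.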

How the data were processed

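RNAseq was performed on total RNA of 3 SUM-149 tumors, 1 each for vehicle, CDK2i and EZH2i. Per the labels, the authors used CASAVA and STAR with hg19, and they deposited log2 FPKM for 29689 genes, in which −9 stands for an FPKM of 0. The counting tool is not given in the sources used here. SPRR genes were taken by symbol. The members, gene lists and motifs were chosen with earlier results of these data known. Named genes were all members, up to 4 genes per list past the thresholds by mean difference, regulators and transglutaminases with a mean log2 FPKM above 1, and the 5 genes nearest in pattern, of which 1 item is not reported here. LOR, FLG, the cell type markers, and genes outside these limits were named after their values were seen.

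Differences were subtracted log2 values, with thresholds of 2-fold and log2 FPKM 3. Library depth was found from the step of 1 fragment in genes with a single transcript of GENCODE 44 (955 to 1030 values per library), fragment numbers were called whole within 0.01 plus 0.04% of the number at one gene length for all 3 libraries, and exact Clopper-Pearson intervals were computed with scipy 1.17.1. FPKM depends on the gene length used, which the source table does not give, so levels between genes are less certain than differences within a gene. The depth step, calls and intervals were tested on simulated data. Alternatives were the fold and expression limits, the scaling, the pseudocount, the removal of GC and length trends and the membership rule of lists.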

Additional observations from a re-analysis of the deposited data

How the results depend on the processing

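The number of members past the thresholds in CDK2i, 5 as reported, was 8 with no expression minimum and 8 with a minimum of log2 FPKM 1, and 4 to 6 under the other 9 alternatives. In EZH2i, 2 as reported, it was 1 with a fold limit of 3, 0 with a minimum of log2 FPKM 5, and 2 or 3 under the others. The change of the summed SPRR level in CDK2i (2.15) was 2.32 after centring the libraries on their median genes, 2.30 with the summed FPKM made equal, 2.01 with the sum made equal without ribosomal protein and mitochondrial genes, and 2.29 with GC and length trends removed. In EZH2i (0.42) it was 0.20, 0.66, 0.45 and 0.98 in the same order. The SPRR1 sum in EZH2i, −0.35 as reported, became 0.27 with GC and length trends removed. That trend took −0.42 to −0.66 from the members in EZH2i and −0.12 to −0.14 in CDK2i.

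For single members, 113 of 132 alternative values stayed within the counting interval. All 48 in CDK2i against vehicle stayed above 0, from 1.01 to 6.07. The sign changed 4 times, once for SPRR1B in EZH2i against vehicle and 3 times for SPRR2G in EZH2i against CDK2i (0.08, 0.16 and 0.44 from −0.02), none of them past the thresholds as reported. With SPRR2 genes summed as 1 entry, SPRR1B was first in vehicle and CDK2i and second in EZH2i. With list members taken by their highest value, the median of transglutaminases in EZH2i was 0.05 in place of 0.44. The 0.44 is TGM1 alone, and that rule adds TGM5 (−0.34). For fibroblast markers in CDK2i the median was 0.13 in place of 0.95, as the rule adds COL3A1 (−1.44). No paired analysis was possible because each group had 1 library.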

Other observations

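The table held 3 SPRR symbols that are no members. SPRR4, at the edge of the cluster, measured 0.975 FPKM in vehicle, 3.28 FPKM in CDK2i and 1.17 FPKM in EZH2i, from 12, 46 and 15 fragments. Its ratio to vehicle was 3.36 in CDK2i (exact 95% interval 1.75 to 6.97, counting error only) and 1.2 in EZH2i (interval 0.523 to 2.8). SPRR2B measured 0.768, 1.27 and 2.13 FPKM, from 9, 17 and 26 fragments, and was the one SPRR symbol with its highest value in EZH2i. The ratio of EZH2i to CDK2i for SPRR2B was 1.67 with an interval of 0.873 to 3.28, which holds 1, and its sequence is nearly that of SPRR2A. SPRR2C, annotated as an unprocessed pseudogene, measured 0.272, 2.62 and 0.521 FPKM, from 1, 11 and 2 fragments, and its CDK2i to vehicle ratio of 9.65 had an interval of 1.4 to 415.

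The late cornified envelope (LCE) genes, which lie in the same complex, were mostly at the limit of detection. Of 14 LCE genes in the table, 11 were listed at 0 in vehicle, 5 in CDK2i and 2 in EZH2i. Of all 29689 genes, 5853, 5624 and 5682 were listed at 0 in the same order. Apart from LCE3A, LCE3D and LCE3E, no LCE gene exceeded 0.386 FPKM in any tumor. LCE3A was listed at 0 in vehicle and measured 1.93 FPKM in CDK2i and 2.96 FPKM in EZH2i, and LCE3E measured 0.195, 1.8 and 1.03 FPKM. PRR9, a proline-rich gene beside the SPRR cluster, had log2 FPKM values of −0.37 in vehicle, 1.97 in CDK2i and 1.59 in EZH2i.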
